A study of Arabidopsis thaliana with 12 samples.

Results

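The transcript response of wild-type Arabidopsis thaliana seedlings to heat was described over 6 of the 12 libraries of the study. The wt heat group holds 3 libraries of Col-0 seedlings aged 7 days that had spent their last 3 h at 38 °C. The wt control group holds 3 libraries of Col-0 seedlings of the same age grown under control conditions, whose temperature the labels do not give. Col-0 is the common laboratory accession, and neither group carries a transgene or mutation by its labels. The other 6 libraries came from the line labelled hop1 hop2 hop3, a triple mutant of HOP co-chaperones, with 3 heat-treated and 3 control libraries of the same age. They shared their replicate spread with the fit and were set against wild type in the last comparison only. Genes were included by a fixed rule, a normalized count of at least 1 in 3 or more of the 12 libraries, which kept 23827 of the 32833 genes in the table. Of all genes, 22837 met the same rule within the 6 wt libraries.

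Heat unfolds proteins, and plant cells answer with chaperones that hold, refold or clear them. Heat shock factors of the HSFA1 group, held back by HSP70 and HSP90 at normal temperature, are released and bind heat shock elements, short inverted repeats upstream of their targets. They switch on a second layer of factors, among them HSFA2, the DREB2 factors and the co-activator MBF1C, which keep the response going, while transcripts of growth and defence usually decline.

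Libraries held 27.4 to 29.9 M fragments in wt heat and 26.1 to 33.9 M in wt control. The first principal component of the 6 libraries held 87.2% of the variance and set heat apart from control. The second held 4.78%, and wt heat replicate 2 lay farthest along it. That library also gave 12.2% of its fragments to rRNA genes, against 6.33% and 5.60% in the other heat libraries. Its chloroplast-encoded genes took 7.65%, against 3.85% and 3.76%. Normalized counts are fragments per gene divided by the authors' size factor of each library, and fold changes are differences of log2(normalized count + 1). Setting each library to its own total in place of that factor, called library size scaling here, moved the median fold change of all genes by -0.88. A gene with a log2 fold change between 0 and about that size therefore changes direction under it. Fewer cells of a type and less RNA per cell cannot be told apart in RNA of whole seedlings.

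Heat changed most of the measured transcriptome. Of 23827 genes, 16435 were called at an adjusted p under 0.05 (69.0%, limma), with 7904 higher (33.2%) and 8531 lower (35.8%) under heat. The balance between directions depends on the scaling, since 3237 genes were higher (13.6%) and 14667 lower (61.6%) with library size scaling. All 8531 genes called lower stayed lower and called with that scaling. Of the 7904 called higher, 3237 stayed called higher, 3076 turned negative and 1446 of these were called lower. A change by 1 or more on the log2 scale, in either direction, was seen in 9767 called genes (41.0%), 4272 higher (17.9%) and 5495 lower (23.1%). In 17261 genes (72.4%) no heat value overlapped a control value.

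The largest changes were rises. Among called genes, 62 were higher by 8 or more on the log2 scale and 206 by 5 to 8, whereas 44 were lower by 5 or more. At moderate size the order was reversed, with 3393 genes higher and 4893 lower by 1 to 3. Replicates varied little beside these changes among the 19567 tested genes with a mean of at least 10 in the wt libraries. Their median SD was 0.157 in wt heat and 0.147 in wt control on the log2 scale. The labels do not say whether the replicates are independent cultures. The p-values therefore describe only how far these libraries vary, and that variation may be technical.

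**Figure D1:**
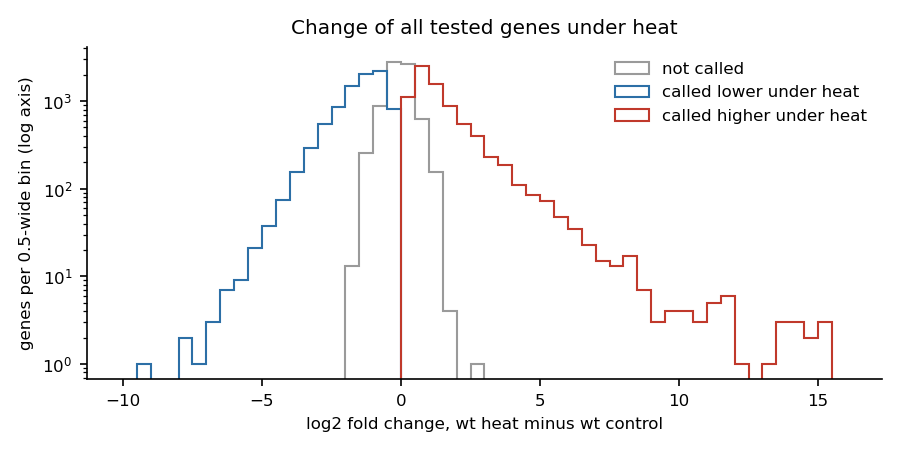
Number of genes (log axis) by log2 fold change of wt heat against wt control, in bins 0.5 wide, with separate outlines for genes called higher, called lower and not called. The right tail reaches 15.44 and the left tail stops near -9, while between -3 and -1 more genes are called lower than are called higher between 1 and 3.

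Heat concentrated the fragments in fewer genes. The 100 genes with most fragments took 45.6%, 49.7% and 43.9% of the fragments in wt heat, against 41.0%, 37.6% and 36.6% in wt control. The groups did not overlap (46.4% ± 3.00 against 38.4% ± 2.34, SD, n = 3 each, exact permutation test, two-sided p = 0.1, the smallest that 3 against 3 can give). Among nuclear genes alone the shares were 45.5% ± 2.27 in wt heat and 36.9% ± 1.76 in wt control. Going down from the highest, 135, 102 and 154 genes held 50% of the fragments in wt heat, and 239, 344 and 357 in wt control. The 268 genes called higher by at least 5 took 19.9% ± 1.42 of fragments under heat and 0.122% ± 0.00372 at control. Genes called lower by at least 1 took 1.89% ± 0.206 under heat and 11.7% ± 0.778 at control. Those last classes were chosen by the change itself and are given as a description.

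**Figure D2:**
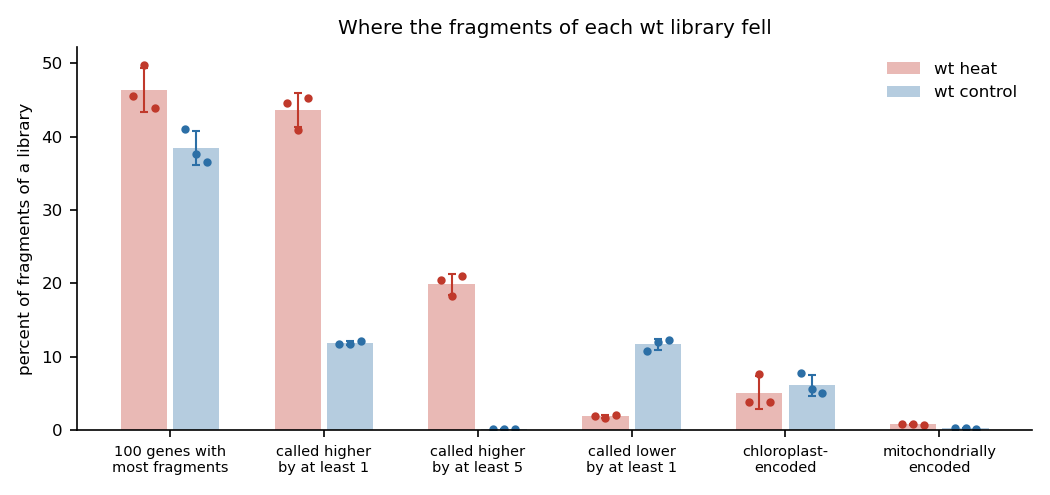
Percent of the fragments of each wt library (points), with group means (bars) and SD (lines, n = 3), in 6 sets of genes, wt heat left of wt control. Genes called higher by at least 1 hold 43.6% of fragments in wt heat and 11.9% in wt control, while the chloroplast-encoded share overlaps between the groups.

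Genes encoded in the organelles were set apart from nuclear ones. Mitochondrially encoded genes took 0.785%, 0.876% and 0.737% of fragments in wt heat and 0.296%, 0.216% and 0.192% in wt control, with no overlap. Chloroplast-encoded genes took 5.09% ± 2.22 in wt heat and 6.13% ± 1.44 in wt control, and these ranges overlapped. rRNA genes by description took 8.06% ± 3.64 in wt heat and 8.01% ± 2.34 in wt control.

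The rise named first by size was that of HSP23.6-MITO, a small heat shock protein of mitochondria that holds unfolding proteins. It had normalized counts of 229616, 281263 and 204038 in wt heat, against 14.6, 0.614 and 5.01 in wt control. Every heat library stood above every control library by more than 4 orders of magnitude, while the control values were few fragments and scattered. Its log2 fold change was 15.44 (SE 0.78, adjusted p = 1.01e-07, limma). APX2, a cytosolic ascorbate peroxidase that removes hydrogen peroxide, had 48886, 57359.6 and 46909.8 in wt heat, against 0, 0.614 and 0 in wt control. It was almost undetected at control and rose by 15.40.

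Small heat shock proteins of every compartment listed among the 15 largest rises went up from low control values. The cytosolic class II protein HSP17.6II had 233583, 180833 and 220095 in wt heat, against 12.8, 1.84 and 3.58 in wt control, a rise of 15.19. Its class II neighbour HSP17.6A had 177328, 154910 and 182597 in wt heat, against 14.6, 6.76 and 5.01 in wt control and rose by 14.22. HSP22.0, which resides in the endoplasmic reticulum, had 202446, 162812 and 211664 in wt heat, against 21.9, 3.07 and 3.58 in wt control. Control replicate 1 stood above the other control libraries in HSP22.0, as in each of the other small heat shock protein genes named in this paragraph. HSP17.4, for example, had 52.0, 9.83 and 26.5 in wt control. All heat values of HSP22.0 were far higher, with a rise of 14.63. The chloroplast protein HSP21 had 109579, 93831 and 123458 in wt heat, against 4.56, 3.69 and 3.58 in wt control, and it rose by 14.42. The class I proteins HSP18.2 and HSP17.4 rose by 13.90 and 13.73, and AT1G53540, an annotated class I protein with no symbol in the table, by 14.76. Class I genes are close in sequence, so fragments may be split between them by the counting.

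Chaperones that refold or disaggregate proteins were also among the 15. HSP90.1 (listed as HSP81-1), the heat-inducible cytosolic HSP90, had 455165, 464692 and 449986 in wt heat, against 138, 146 and 112 in wt control. Its replicates agreed closely in both groups, and the rise of 11.75 had an SE of 0.12 (adjusted p = 1.33e-18, limma). HSP101 (listed as CLPB1), which pulls proteins out of aggregates, had 261080, 293444 and 245319 in wt heat, against 79.4, 86.0 and 93.8 in wt control and rose by 11.57. The HSP70 genes MED37C (HSP70-4) and HSP70-5 (HSP70b) rose by 11.17 and 11.33. FKBP65 (ROF2), a prolyl isomerase that binds HSP90, rose by 11.71. DRG2, a GTP-binding protein outside the chaperone families, had 9070.0, 9476 and 8688 in wt heat, against 0.913, 2.46 and 2.86 in wt control and rose by 11.59.

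The 15 largest falls were of varied kinds. FLS2, the receptor for bacterial flagellin, had no fragment in any wt heat library and 507, 683 and 485 in wt control. Taking 3 fragments over the heat group as a floor, it was at least 395-fold lower under heat. IAA29, a repressor of auxin responses, had 6.61, 1.65 and 5.27 in wt heat, against 1481, 1214 and 1025 in wt control, and it fell by 7.93 (adjusted p = 3.53e-06, limma). PAR1, a small bHLH regulator of shade growth, had 10.6, 19.9 and 22.4 in wt heat, against 2426, 2009 and 1859 in wt control and fell by 6.87. In these genes the heat libraries were all close to 0 and every control library far above them.

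Several of the others belong to metabolism. BCAT2, an aminotransferase of branched-chain amino acids, had 21.1, 9.93 and 29.0 in wt heat, against 1134, 1315 and 2374 in wt control. Control replicate 3 was higher than the other control libraries, yet all heat values lay far below, and it fell by 6.30. ACS8, which makes the ethylene precursor, fell by 6.06, and MIOX2, an inositol oxygenase on a route to cell wall sugars, by 5.72. PLT6, a probable polyol transporter, fell by 5.55, UGT76E4, a glycosyltransferase, by 5.30 and KCS12, of the family that elongates fatty acids, by 5.21. The glutamine amidotransferase-like gene GAT1_2.1 fell by 7.51, the calcium-sensor kinase CIPK13 by 5.50 and the transcription factor WRKY22, linked to immunity, by 5.08. The others of the 15 were BHLH87 (-6.33), P1R3 (-6.30) and the receptor-like protein AtRLP19 (-5.84).

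Weighting by fragments gave a partly different view. Apart from rRNA genes, the 10 genes with most fragments per library included MED37C, AT1G53540, HSP18.2, HSP81-1, RCA and the antenna gene CAB1 in wt heat, and CAB1, CAB2, LHB1B2, LHCA4, RBCS-1A and RCA, all of photosynthesis, in wt control. Of the 10 called genes with a symbol and the largest gain in mean normalized count, 9 were chaperones or their partners and the other was RCA, Rubisco activase, which keeps carbon fixation active. RCA had 486350, 517212 and 383865 in wt heat and 191473, 176325 and 182459 in wt control, with no overlap and a rise of 1.32 (0.44 with library size scaling). HSP90-2, a cytosolic HSP90 expressed also without heat, rose by 6.97. Fragments of HSP90-2 may be shared with its near-identical neighbours.

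The 10 called genes with a symbol and the largest loss in mean normalized count ranged from small to large falls on the log2 scale. ASN1, the asparagine synthetase induced by darkness and hunger, had 978, 1196 and 1206 in wt heat, against 30374, 27802 and 36527 in wt control and fell by 4.80. STR15 (SEN1), a senescence-linked rhodanese, had 1286, 1350.1 and 1596 in wt heat, against 18022, 24259.7 and 29211 in wt control, and fell by 4.06. GLP1, a germin-like protein of the cell wall, fell by 2.76, and the chloroplast-encoded ribosomal protein gene RPL16 by 1.58. TIP2-1, a water channel of the vacuole, fell by 1.18, BGAL1, a galactosidase of the wall, by 1.69, RFS6, annotated as a raffinose synthase homologue, by 1.48 and SAMDC1, of polyamine synthesis, by 1.15. The antenna gene LHB1B1 and BGLU23 (PYK10), the main protein of root ER bodies, fell by 0.48 and 0.50.

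Some genes were detected in only 1 of the wt groups. No fragment was found in any wt control library for 359 tested genes, of which 164 were called higher, and in any wt heat library for 582, of which 327 were called lower. These counts depend on the filter, which 521 genes passed only through heat libraries and 178 only through control libraries of either line. A single fragment stands for 1.32 to 1.65 in wt heat and 0.614 to 0.913 in wt control. On its own it meets the filter's minimum of 1 only in wt heat. ZAT7, a zinc finger repressor of stress responses, had 269.6, 243 and 204 in wt heat and 0 in each control library, at least 328-fold higher by the floor of 3 fragments over the control group. GAMT2, which inactivates gibberellins by methylation, had 63.4, 82.7 and 88.3 under heat and none at control, at least 107-fold higher. MIR156H, a precursor gene of the juvenile-phase microRNA miR156, had 43.6, 44.7 and 40.9 under heat and none at control, at least 59.1-fold higher. UGT73C2 was at least 78.6-fold higher. The mitochondrial reading frames ORF152A, ORF143, ORF106G and ORF106D made up the rest of the 8 named.

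The converse set had no fragment under heat. After FLS2 came PER4, a cell wall peroxidase, with 117, 79.9 and 73.0 in wt control, at least 63.5-fold lower under heat. SLAH1, an anion channel gene, had 52.9, 60.2 and 61.6 in wt control and was at least 41.2-fold lower. PCMP-E88, a pentatricopeptide repeat gene of mitochondrial RNA processing, was at least 24.8-fold lower. CYP96A5 was at least 23.1-fold lower and PRA1F1 at least 21.0-fold, and SAUR68 and AtRLP22 completed the 8. These floors cover counting error only.

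Of 15 heat sensing and early signalling genes, 7 rose and 6 fell on the deposited scale, while with library size scaling 1 was higher and 11 were lower. The first counts are 46.7% and 40%, beside 33.2% higher and 35.8% lower of all genes. With library size scaling the shares of all genes were 13.6% and 61.6%. Among thermosensors, ELF3, a clock protein that silences growth at cool temperatures, had 2128, 1946 and 2231 in wt heat and 778, 898 and 905 in wt control and rose by 1.29. PHYB, the red light receptor that reverts faster when warm, fell by 0.53. PIF7, a growth factor whose transcript folds with temperature, had 765, 554 and 721 in wt heat, against 69.4, 111 and 106 in wt control and rose by 2.84, with no overlap. PIF4, the growth factor released by warmth, rose by 0.24 but was at -0.64 with library size scaling.

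Calcium channels and calmodulins are thought to act early in heat signalling. The channel genes CNGC2 and CNGC6 fell by 1.56 and 1.59, and CNGC2 had 563, 556 and 479.7 in wt heat, against 1555, 1526 and 1633 in wt control. CNGC4 rose by 0.81, against -0.07 with library size scaling. The calmodulin genes CAM3 and CAM7 rose by 0.98 and 0.65, of which CAM7 turned to -0.23 with library size scaling. The phospholipase gene PLC3 fell by 1.08 and PLC9 was at -0.72, a change that missed the threshold (adjusted p = 0.0656, limma). Of the stress kinases MPK3 and MPK6, MPK3 had 309, 313 and 337 in wt heat and 810.4, 829 and 820.5 in wt control and fell by 1.36, while MPK6 was not called. ICE1, a cold-response regulator, fell by 0.34. HSBP, a protein that binds and restrains heat shock factors, rose by 0.45 but was at -0.43 with library size scaling.

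Of 27 heat transcription genes, 19 were called higher and 2 lower, and with library size scaling 16 higher and 10 lower. The median log2 fold change was 2.53 (1.65 with library size scaling). The comparable medians of all genes were -0.08 and -0.88. The HSFA1 genes, which start the response, differed among themselves. HSFA1D had 944, 918 and 853 in wt heat, against 148, 176 and 146 in wt control, and HSFA1E had 694, 774 and 635 in wt heat, against 67.5, 79.3 and 79.5 in wt control. They rose by 2.53 and 3.20, each with no overlap between the groups. HSFA1B had 178, 136 and 195 in wt heat, against 300.3, 325 and 348 in wt control and fell by 0.94. HSFA1A had 51.5, 36.4 and 79.1 in wt heat and 49.3, 81.1 and 73.0 in wt control, overlapping ranges that were not called (-0.32, adjusted p = 0.404, limma).

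In the second layer HSFA2, which prolongs the response, had 63187, 63306 and 55914 in wt heat, against 7.30, 1.23 and 2.86 in wt control. It rose by 13.84 (SE 0.42, adjusted p = 1.38e-09, limma), and every control value lay below 10. HSFA7B, a further class A factor, had 3628, 3332 and 2922 in wt heat, against 2.74, 1.23 and 0.716 in wt control and rose by 10.40, while its relative HSFA7A rose by 3.04. HSFA3, which acts after DREB2A, had 2227, 2336 and 2455 in wt heat, against 90.3, 87.9 and 78.8 in wt control, a rise of 4.76. HSFA6B rose by 1.89. HSFA8 went the other way, with 11.9, 26.5 and 23.7 in wt heat, against 114, 119 and 138 in wt control, and fell by 2.59. HSFA4A, HSFA6A and HSFB3 were not called.

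Of the class B factors, which lack the activation domain of class A and can repress, HSFB1, HSFB2A and HSFB2B rose. HSFB1 had 29103, 29174 and 25262 in wt heat, against 768, 670.3 and 692 in wt control, a rise of 5.29. HSFB2A and HSFB2B rose by 3.79 and 5.97, and HSFC1 by 0.59 (-0.29 with library size scaling). The drought and heat factor DREB2A had 3352, 2588 and 3609 in wt heat, against 86.7, 97.1 and 128 in wt control and rose by 4.93. Its relatives DREB2B and DREB2C rose by 3.88 and 3.28.

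Among co-activators, MBF1C had 97978, 94409.6 and 92516 in wt heat, against 154, 121 and 117 in wt control, the closest agreement between heat replicates in this group, and rose by 9.51. MBF1A rose by 1.71, and MBF1B by 0.38 but was at -0.51 with library size scaling. BZIP28, which reports unfolded protein from the endoplasmic reticulum, had 5213, 5162 and 4842 in wt heat, against 651, 575 and 618 in wt control and rose by 3.04. BZIP60, the factor of the parallel splicing branch, rose by 0.53 (-0.35 with library size scaling). Counts per gene do not show how much of its RNA was spliced. NF-YC10, a partner of DREB2A, and JUB1, a NAC factor, were not called.

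**Figure D3:**
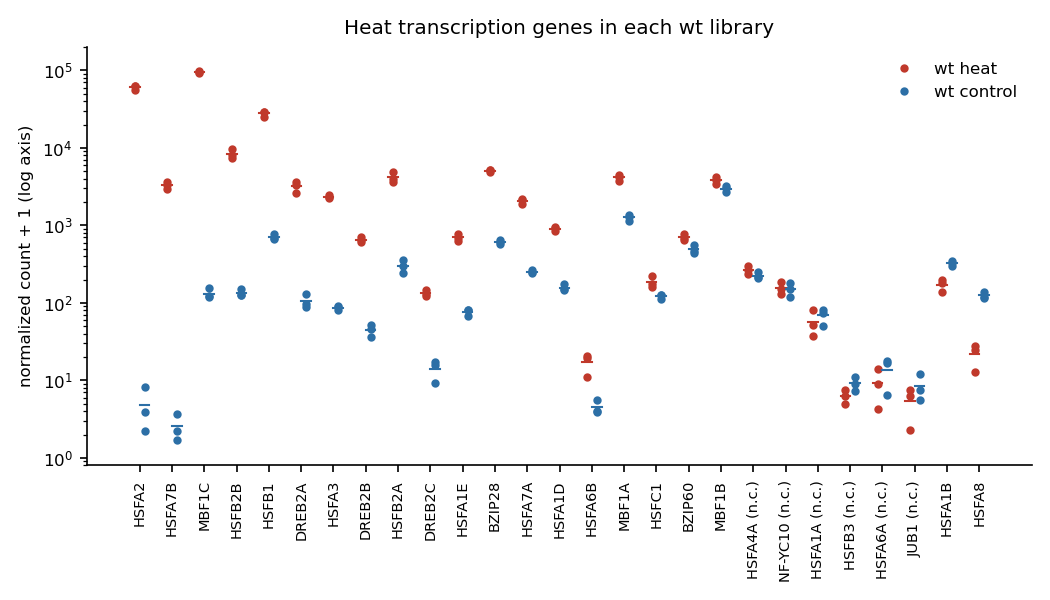
Normalized count plus 1 (log axis) of each of the 27 heat transcription genes in each wt library, wt heat left of wt control, with short lines for group means and n.c. marking genes not called. Genes run from the largest rise to the largest fall: HSFA2 and HSFA7B start near 0 and lie above 2900 in every heat library, and only HSFA1B and HSFA8 are called lower.

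Genes known from thermotolerance memory rose almost throughout, 13 of 14, with a median of 8.21 (12 higher, 1 lower and a median of 7.42 with library size scaling). HSA32, needed for lasting thermotolerance, had 31297, 36908 and 32576 in wt heat, against 158, 114 and 175 in wt control and rose by 7.83. FTSH6, a chloroplast protease that degrades HSP21, had 504, 499.7 and 482 in wt heat, against 0, 0 and 2.15 in wt control and rose by 8.40, and of the control libraries only replicate 3 held any of its fragments. GOLS1, the galactinol synthase that starts raffinose synthesis, had 118015, 129251 and 98413 in wt heat, against 287, 292 and 311 in wt control, a rise of 8.59, and MIPS2 (listed as IPS2), which makes its inositol, rose by 8.01. The prolyl isomerase ROF1 rose by 6.03, and LACS9, an acyl-CoA synthetase, by 2.67. NBR1, an autophagy receptor for aggregates, rose by 0.99, and the chromatin remodeller BRM was not called.

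The heat shock element offers a sequence view of the same response. It was sought as 3 units, GAA or TTC in turn, each 2 bases from the next, on both strands of the 250 bases before each protein-coding gene start of RefSeq's annotation (assembly TAIR10.1). Of the genes called higher by at least 5, 7 hold it in that window. The stretches below show these 7, 5′ to 3′ along the strand of the gene, with the units of the element in capitals and flanks of up to 40 bases in lower case.

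AT1G53540, class I small heat shock protein, chr1:19980206-19980298, plus strand: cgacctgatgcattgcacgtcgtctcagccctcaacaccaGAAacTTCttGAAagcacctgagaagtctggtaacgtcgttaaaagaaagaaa
HSFA2, heat shock factor, chr2:11135496-11135588, plus strand: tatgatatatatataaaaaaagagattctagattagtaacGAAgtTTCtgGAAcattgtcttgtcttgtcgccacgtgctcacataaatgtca
HSP17.4, class I small heat shock protein, chr3:16984868-16985006, minus strand: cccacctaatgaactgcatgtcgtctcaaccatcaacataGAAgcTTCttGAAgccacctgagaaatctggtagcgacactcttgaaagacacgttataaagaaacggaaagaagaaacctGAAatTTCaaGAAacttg
AT1G71000, J-domain protein, chr1:26770251-26770348, minus strand: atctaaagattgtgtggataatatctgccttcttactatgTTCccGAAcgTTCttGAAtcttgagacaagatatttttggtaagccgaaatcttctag
HSFA7B, heat shock factor, chr3:23399039-23399131, plus strand: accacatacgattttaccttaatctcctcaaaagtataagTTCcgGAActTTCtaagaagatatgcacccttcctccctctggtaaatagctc
GOLS1, galactinol synthase, chr2:19370526-19370618, minus strand: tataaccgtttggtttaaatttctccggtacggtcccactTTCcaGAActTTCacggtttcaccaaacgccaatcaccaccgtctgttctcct
DIP2, annotated as an unknown protein, chr5:763481-763538, minus strand: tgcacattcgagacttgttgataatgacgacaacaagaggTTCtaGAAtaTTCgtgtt

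The units read GAA, TTC, GAA in AT1G53540, HSFA2 and HSP17.4, and TTC, GAA, TTC in HSFA7B, GOLS1 and DIP2, which is the same element read from the other end. HSP17.4 holds 2 separate elements, and the 4 units of AT1G71000 form 2 that overlap. The end of the element nearest the gene lay 6 bases before the gene start in HSP17.4 and DIP2, 41 in AT1G53540, 76 in HSFA2, 88 in GOLS1, 114 in AT1G71000 and 145 in HSFA7B. AT1G71000 had 5318, 5469.9 and 5800.3 in wt heat, against 1.83, 0 and 0.716 in wt control and rose by 11.67, and DIP2 rose by 6.44.

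The element was found in 7 of 210 windows of genes called higher by at least 5 (3.33%) and in 11 of 512 of those higher by 3 to 5 (2.15%). It was in 21 of 3141 windows at 1 to 3 (0.669%), 20 of 6572 of genes not called (0.304%) and 0 of 581 of genes lower by at least 3. Over all 22286 windows the share was 0.404%. A looser form of 2 units, part of the longer one by construction, was in 25.7% of the highest class and 15.9% of all windows. Of the 15 largest rises, HSFA2 and HSP17.4 hold 3 units, and APX2, HSP21 and HSP17.6A hold the looser form without the longer one. A match is a description of letters and says nothing about binding, and no match says only that these letters are not in this window.

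Other motifs differed in how they followed the size of the change. The dehydration element, ACCGAC or GCCGAC, which DREB factors are known to bind, was in 13.8% of windows of genes higher by at least 5, 14.1% at 3 to 5, 7.12% of genes not called, 5.68% of genes lower by at least 3 and 7.70% of all. The G-box CACGTG, bound by PIF and bZIP factors, was in 13.8% of the highest class, 6.20% of the lowest and 7.30% of all. Site II, TGGGCC, known from genes of ribosomes and growth, was in 19.0% of the highest class, 19.4% of genes called within 1, 7.92% of the lowest class and 15.4% of all. The W-box of WRKY factors, TTGACC or TTGACT, and the auxin element TGTCTC varied less, at 27.6% and 11.9% in the highest class, 31.7% and 10.8% in the lowest, and 28.4% and 10.8% of all. Among the rarer motifs, the highest and lowest classes and all windows held CGCGTT, the CAMTA element, at 4.29%, 1.89% and 2.76%, GCCGCC, the GCC-box, at 2.86%, 1.20% and 1.94% (3.91% in genes higher by 3 to 5), and the telobox of growth genes at 2.38%, 2.58% and 3.59%. The evening element of clock-regulated genes was in 1.90%, 3.27% and 2.45%, with the highest share, 4.69% (24 of 512), in genes higher by 3 to 5, and the E2F element of the cell cycle in 0.476%, 1.38% and 0.978%. All were read on both strands.

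**Figure D4:**
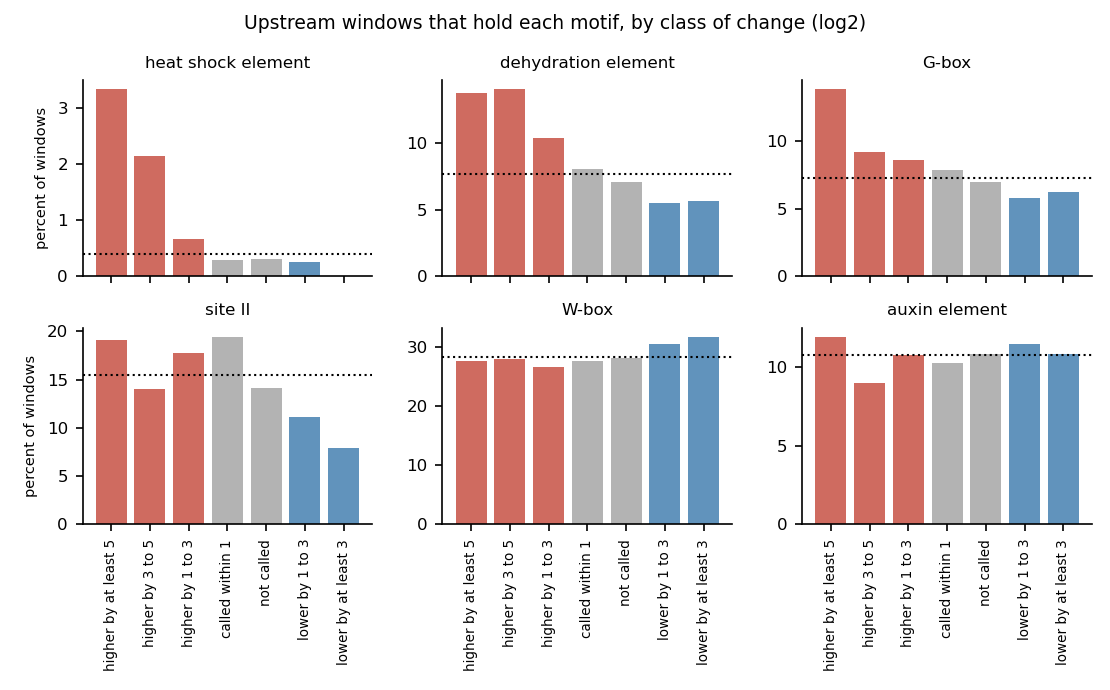
Percent of 250-base upstream windows that hold each of 6 motifs, by class of log2 fold change under heat from higher by at least 5 (left) to lower by at least 3 (right), with a dotted line for all windows. Shares of the heat shock element go from 3.33% to 0% over the classes, while those of the W-box stay between 26.7% and 31.7%.

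Gene structure by class is given as a description. Genes without an intron made up 62 of 210 (29.5%) of those higher by at least 5 and 206 of 581 (35.5%) of those lower by at least 3, against 9.65% of genes called within 1 and 17.2% of all. Genes higher by at least 5 had a median of 74.3 TPM under heat and 0.953 TPM at control, a scale that corrects for gene length. Genes lower by at least 3 had medians of 0.116 under heat and 3.50 at control. TPM sets each library to a common total, unlike the deposited scale that defined the classes. Medians of all genes were 3.35 TPM under heat and 7.24 at control, and those of genes not called 1.58 and 3.17.

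The counts of the lists that follow stand beside 33.2% higher and 35.8% lower of all genes on the deposited scale. With library size scaling these shares were 13.6% and 61.6%. Of 25 ubiquitin and SUMO genes, 15 were called higher and 6 lower on the deposited scale, at a median of 0.62. With library size scaling the counts turned to 5 higher and 14 lower, at a median of -0.26. PUB48, a ubiquitin ligase, had 1459, 1296 and 1415 in wt heat, against 21.0, 23.3 and 27.2 in wt control and rose by 5.81. CHIP, the ligase that tags clients of HSP70 and HSP90, had 2154, 2172 and 2111 in wt heat, against 309, 318 and 324 in wt control, with very close replicates and a rise of 2.75. The polyubiquitin gene UBQ14 rose by 2.70 and CUL4, a ligase scaffold, by 1.72. PA200, an activator of the proteasome, fell by 1.13. Polyubiquitin genes share repeats, so their counts may be split between copies.

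Of 17 translation factors, 10 rose and 2 fell, with a median of 0.40, and with library size scaling 1 was higher, 11 were lower and the median was -0.48. EIFISO4G2, a cap-complex scaffold, rose by 1.59, and GCN2, a kinase that limits initiation, fell by 0.74. Ribosome biogenesis genes were higher in 13 of 20 cases and lower in 1, and by library size scaling 5 were higher and 5 lower. The RNA helicases SWA3 and RH57 rose by 2.32 and 1.85, the snoRNP protein NOP10 by 1.68 and fibrillarin FIB2 by 1.55. SWA3 had 623, 548 and 619 in wt heat, against 92.2, 134 and 135 in wt control.

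RNA decay genes went mainly down, 16 of 25 lower (64%) and 6 higher (24%), beside 35.8% and 33.2% of all genes. With library size scaling 1 was higher and 21 were lower. The deadenylase gene CAF1A had 5.29, 16.5 and 2.64 in wt heat, against 68.4, 52.2 and 76.6 in wt control and fell by 3.16, and CAF1B fell by 1.77. LSM1A, of the decapping activator ring, fell by 1.31, and LARP1A, a cofactor of heat-triggered mRNA decay, by 1.13. UBP1B, a stress granule protein, had 1789.7, 1923 and 1479 in wt heat and 797, 731 and 740.3 in wt control and rose by 1.19. Among 22 splicing and RNA-binding genes, 13 rose and 5 fell, at a median of 0.44, but with library size scaling 0 were higher, 13 were lower and the median was -0.44. RZ-1B and the spliceosome protein SKIP rose by 1.22 and 1.21, and PRP40A, of the U1 particle, fell by 1.69.

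Silencing genes were lower in 21 of 34 cases and higher in 6, with a median of -0.68, and with library size scaling 1 was higher and 27 were lower. DRD1, a remodeller of RNA-directed DNA methylation, had 56.8, 43.0 and 64.6 in wt heat, against 324, 297 and 291 in wt control and fell by 2.47. The methyltransferase CMT2 had 51.5, 49.6 and 107 in wt heat, against 240.0, 313 and 271 in wt control and fell by 2.05, the demethylase DML2 by 2.38 and the RNA polymerase RDR1 by 1.98. SE, which guides microRNA processing, rose by 1.57 and AGO2, an argonaute of antiviral defence, by 1.03.

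DNA replication genes were lower in 17 of 30 cases, with 5 higher and a median of -0.56, and with library size scaling 2 were higher and 24 lower. The 4 largest falls in the list were of RPA70B, which coats single strands, by 2.99, and of CDT1A, CDC45 and ORC2, which act before or at the start of replication, by 2.59, 2.34 and 1.92. CDC45 had 13.2, 11.6 and 21.1 in wt heat, against 95.8, 67.0 and 77.3 in wt control. By contrast TSO2, the small subunit of the reductase that makes deoxynucleotides, had 2733, 2978 and 2795 in wt heat, against 426, 396 and 384 in wt control and rose by 2.81, and the sliding clamp PCNA1 rose by 1.66. Of 22 repair genes, 13 fell and 4 rose, with 3 higher and 16 lower by library size scaling. SMR5, an inhibitor of cyclin-dependent kinases, had 1044, 1226 and 987 in wt heat, against 7.30, 3.69 and 5.01 in wt control, a rise of 7.46 (SE 0.26, adjusted p = 1.25e-12, limma). The checkpoint kinase WEE1 rose by 1.91 and its upstream kinase ATR fell by 1.12. The photolyases split, with UVR2 higher by 1.93 and UVR3 lower by 1.80.

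Cytoskeleton genes were higher in 8 and lower in 7 of 23 cases, near the shares of all genes (33.2% and 35.8%), with 1 higher and 18 lower by library size scaling. ACT7, an actin of growing tissue, had 13778, 15591 and 13451 in wt heat, against 5527, 5245 and 5055 in wt control and rose by 1.43. The tubulins TUB5 and TUB7 fell by 1.26 and 1.19.

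Wall synthesis genes were mainly lower, 17 of 26, with 6 higher, and 0 higher against 23 lower with library size scaling. CSLC4, which makes the xyloglucan backbone, had 259, 204 and 285 in wt heat, against 1644, 1731 and 1395 in wt control and fell by 2.68. COB, a guide of cellulose orientation, had 1495, 1565 and 1485 in wt heat, against 4359, 4535 and 4148 in wt control, and fell by 1.52, and the pectinesterase PME3 fell by 1.22. Phenylpropanoid genes gave 8 higher and 8 lower of 21, near the shares of all genes (33.2% and 35.8%), and 5 higher and 14 lower with library size scaling. CAD5, the last enzyme of monolignol synthesis, had 3564, 4658 and 3831 in wt heat, against 651, 441 and 479 in wt control and rose by 2.95, and CYP98A3, which adds the second ring hydroxyl, rose by 1.93. The entry enzymes PAL2 and PAL4 fell by 0.98 and 1.1, and MYB63, a lignin activator, by 2.53.

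Membrane lipid genes were higher in 17 of 27 cases and lower in 6, at a median of 0.44, but 10 higher and 16 lower with library size scaling, at a median of -0.45. DGD1 and DGD2 make digalactolipid, the bilayer-forming lipid of chloroplast membranes. DGD1 had 4205, 3829 and 4195 in wt heat, against 658, 656 and 576 in wt control, and DGD2 had 2226, 2483 and 1976 in wt heat, against 198, 196 and 217 in wt control. Both rose with no overlap, by 2.69 and 3.44. The desaturase FAD4 rose by 2.68, while MGD2, which makes monogalactolipid under phosphate starvation, fell by 1.96 and the plastid carboxylase ACC2 by 2.65.

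Surface lipid genes went the other way on the deposited scale, with 18 of 33 wax and cutin genes lower and 3 higher. With library size scaling 2 were higher and 29 lower, and membrane lipid genes also had more lower than higher. CER2, which extends wax precursors, had 369, 386 and 279 in wt heat, against 1785, 1362 and 1414 in wt control and fell by 2.14. The regulators MYB30, MYB106 and SHN2 fell by 2.26, 1.84 and 1.77. KCS2 (listed as KCS17), an elongase of suberin and wax chains, had 2293, 2323 and 1733 in wt heat, against 267, 217 and 244 in wt control and rose by 3.11.

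Brassinosteroid and sterol genes were lower in 26 of 37 cases and higher in 1, with a median of -0.68, and with library size scaling 1 was higher and 33 were lower. The 4 largest falls were of growth-promoting bHLH genes, PRE1 by 3.53, BEE2 by 3.40, BEE1 by 2.62 and PRE6 by 2.1. BEE2 had 196, 96.0 and 163 in wt heat, against 1389.9, 1679 and 1572 in wt control. The gene called higher was SQE3, a squalene epoxidase at the start of sterol synthesis, with a rise of 1.32.

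Gibberellin genes were lower in 17 of 30 cases and higher in 3, and with library size scaling 3 were higher and 27 lower. The DELLA repressor GAI had 96.5, 116 and 121 in wt heat, against 2225, 2145 and 1896 in wt control, and fell by 4.22 (SE 0.16, adjusted p = 3.14e-12, limma), and RGL3 fell by 2.54. GA3OX1, which makes active gibberellin, had 2954, 2965 and 2363 in wt heat, against 73.0, 61.4 and 55.8 in wt control and rose by 5.42. The target GASA1 rose by 3.27, while its family members GASA14 and GASA5 fell by 4.10 and 3.87. The DELLA gene RGA was not called.

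Of 25 ethylene genes, 16 fell and 6 rose, at a median of -0.97, and with library size scaling 3 were higher and 19 lower. The precursor synthases diverged. ACS4 had 1.32, 0 and 1.32 in wt heat, against 133, 90.9 and 85.2 in wt control and fell by 5.86, and ACS5 fell by 4.03, whereas ACS7 had 295, 271 and 340.0 in wt heat, against 16.4, 7.37 and 15 in wt control and rose by 4.51. Among receptors, ERS1 had 239, 248 and 249 in wt heat, against 1484, 1829 and 1607 in wt control and fell by 2.73, and ETR2 rose by 1.72. EBF1, which targets the central factor EIN3 for degradation, rose by 1.38.

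Of 37 cytokinin genes, 23 fell and 6 rose, with 2 higher and 32 lower by library size scaling. IPT5, of cytokinin synthesis, had 5.29, 0 and 3.95 in wt heat, against 63.0, 36.3 and 50.1 in wt control and fell by 3.98, and the response regulator ARR3 fell by 2.1. Of the cytokinin response factors, CRF6, known from stress, had 901, 1132 and 809 in wt heat, against 205, 168 and 205 in wt control and rose by 2.28, and CRF1 and CRF5 fell by 2.75 and 2.33. The activating enzyme LOG1 and the receptor AHK3 rose by 1.55 and 1.12.

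Of 44 starch and sugar genes, 17 were higher and 20 lower, against 4 higher and 27 lower with library size scaling. The first counts are 38.6% and 45.5%, beside 33.2% and 35.8% of all genes. SUS1, a sucrose synthase, had 3809, 4763 and 4087 in wt heat, against 371, 449 and 405 in wt control and rose by 3.37. The sucrose-phosphate synthase SPS2F rose by 2.83 and the starch synthase GBSS1 by 2.64. DPE1 and ISA3, of starch breakdown, fell by 2.54 and 1.85, and DPE1 had 112, 121 and 137 in wt heat, against 659, 777 and 736 in wt control. TPS6 and TPPH, of the trehalose family, fell by 1.73 and 1.82.

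The 20 genes linked to energy starvation, induced genes and regulators together, included 12 that fell and 5 that rose. With library size scaling 2 were higher and 14 lower. Besides ASN1, the branched-chain catabolism genes DIN3, DIN4 and MCCA fell by 2.60, 2.79 and 3.47, and MCCA had 908, 736 and 875 in wt heat, against 7887, 8669 and 11627 in wt control. The largest rises were of the bZIP genes BZIP11, BZIP53 and BZIP1, by 1.98, 1.63 and 1.15. BZIP11 had 452, 364 and 406 in wt heat, against 112, 89.7 and 106 in wt control, with no overlap.

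Carbon fixation genes were higher on the deposited scale, 16 of 23 Calvin cycle genes against 2 lower, but 2 were higher and 13 lower with library size scaling. FBA1, a plastid aldolase, had 70083, 78351 and 55109 in wt heat, against 25013, 19338 and 22174 in wt control and rose by 1.61. CP12-3, of a family of cycle inhibitors, had 59.5, 46.3 and 65.9 in wt heat, against 236, 237 and 283 in wt control and fell by 2.13. Photorespiration genes gave 9 higher and 1 lower of 15, with 0 higher and 9 lower by library size scaling. Their range of log2 fold changes was narrow, from -0.41 for GLDP2, of the glycine decarboxylase, to 0.95 for GOX1, which oxidizes glycolate.

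Pigment genes were higher in 26 of 43 cases and lower in 5, at a median of 0.60, but 9 higher and 22 lower with library size scaling, at a median of -0.28. The reductases that make chlorophyllide in light diverged. PORC, the form of green tissue, had 8857, 8235 and 8608 in wt heat, against 2207, 2160.3 and 1893 in wt control and rose by 2.04, and PORA, the form of dark-grown seedlings, had 7.93, 6.62 and 9.23 in wt heat, against 77.6, 88.5 and 60.1 in wt control and fell by 3.09. GUN4, an activator of magnesium chelatase, rose by 1.59, and BCH2, a carotene hydroxylase, by 1.85.

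Mitochondrial genes in the nucleus were higher in 21 of 36 cases and lower in 4, with 10 higher and 16 lower by library size scaling. CYTC-2, a cytochrome c, had 3977, 4095 and 3727 in wt heat, against 285, 239.6 and 233 in wt control and rose by 3.96. The import gene TIM17-1 had 139, 187 and 112 in wt heat, against 11.9, 7.37 and 5.01 in wt control, a rise of 4.05. NDB2, an alternative NADH dehydrogenase, rose by 3.14, and the membrane scaffold PHB3 by 2.90. UCP2, an uncoupling protein gene, fell by 1.3.

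Amino acid genes rose in 19 and fell in 13 of 44 cases, but 3 were higher and 31 lower with library size scaling. The first counts are 43.2% and 29.5%, beside 33.2% and 35.8% of all genes. Catabolic genes were among the falls, with GDH2, a glutamate dehydrogenase, at 1161, 1100.3 and 1178 in wt heat, against 9444, 10165 and 13124 in wt control, which fell by 3.24, and ERD5, the proline dehydrogenase, lower by 3.20. Arginine breakdown went the other way, with ARGAH2, an arginase, at 2439, 2384 and 1874 in wt heat, against 351, 304 and 337 in wt control, a rise of 2.74. ADC2, which starts polyamine synthesis from arginine, rose by 1.78, and MTO1, of methionine synthesis, by 1.66.

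**Figure D5:**
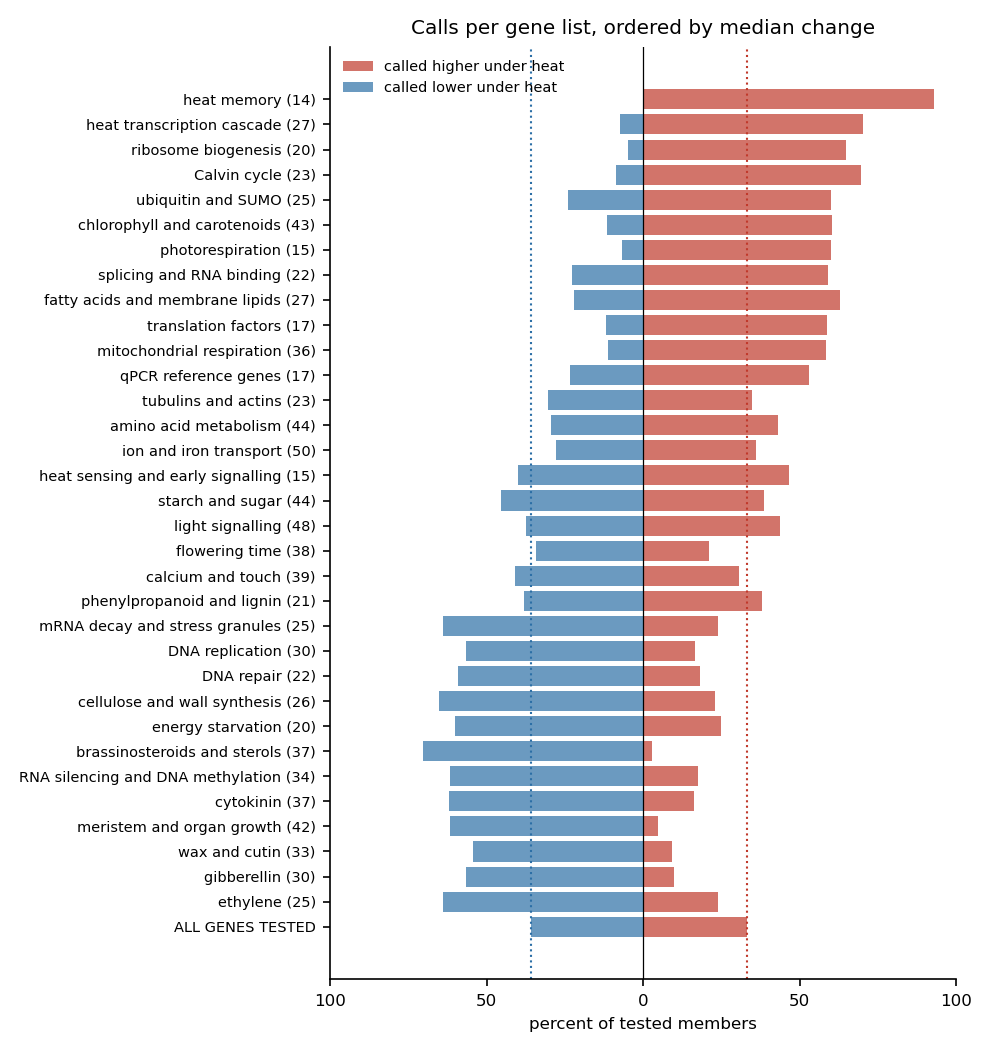
Percent of the tested members of each of 33 gene lists that were called higher (right of 0) or lower (left of 0) under heat, ordered by median log2 fold change, with the number tested in brackets and dotted lines for all genes tested (33.2% higher and 35.8% lower). Heat memory and heat transcription genes reach 92.9% and 70.4% called higher, and brassinosteroid and sterol genes 70.3% called lower.

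Calcium and touch genes gave 12 higher and 16 lower of 39, near the shares of all genes (33.2% and 35.8%), and 5 higher and 30 lower with library size scaling. CML37, a stress-induced calcium sensor, had 47.6, 36.4 and 51.4 in wt heat, against 0.913, 0.614 and 0 in wt control and rose by 4.97. CBL1, which recruits kinases of the CIPK family, rose by 2.65 and TCH2, a touch-induced calmodulin relative, by 1.40. CML42 fell by 3.08, the kinase CPK11 by 2.52, and CAX1, which loads calcium into the vacuole, had 938, 882 and 1016 in wt heat, against 4586, 4364 and 4251 in wt control and fell by 2.22.

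Transport genes for ions and iron gave 18 higher and 14 lower of 50, with 8 higher and 30 lower by library size scaling. The first counts are 36% and 28%, beside 33.2% and 35.8% of all genes. NHX2, a vacuolar potassium and sodium exchanger, rose by 2.49, and KUP6, a potassium carrier, had 4309, 4631 and 3980.2 in wt heat, against 873, 847 and 800.4 in wt control and rose by 2.35. FIT1, the regulator of iron uptake, had 46.3, 39.7 and 40.9 in wt heat, against 199.9, 157 and 157 in wt control and fell by 1.99. Its partners split, with BHLH39 higher by 2.26 and BHLH101 lower by 2.43. The iron transporter IRT1 and the reductase FRO2, both targets of FIT1, were not called.

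Light signalling genes gave 21 higher and 18 lower of 48 on the deposited scale, and 13 higher and 26 lower with library size scaling. The first counts are 43.8% and 37.5%, beside 33.2% and 35.8% of all genes. ELIP1, a light-stress protein of thylakoids, had 3188, 3142 and 3241 in wt heat, against 17.3, 7.99 and 43.7 in wt control. Control values varied widely while heat replicates agreed, and the rise was 7.36. After ELIP1 the largest rises in the list were of the B-box genes BBX31, BBX32 and BBX22, by 3.38, 3.21 and 2.94. The 4 largest falls were of FHL, a nuclear importer of phytochrome A, by 4.33, the shade gene PIL1 by 2.78, and PKS1 and PKS2, which bind phytochromes, by 2.77 and 2.67.

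Meristem and organ growth genes were lower in 26 of 42 cases and higher in 2, at a median of -0.79, and with library size scaling 2 were higher and 31 lower. The auxin carriers PIN7 and AUX1 had large falls. PIN7 had 256, 192 and 225 in wt heat, against 3161, 3479 and 2669.8 in wt control and fell by 3.78, and AUX1 had 597, 541 and 561 in wt heat, against 4275, 3632 and 3673 in wt control and fell by 2.76. CLV1, a receptor that limits stem cells, fell by 2.97 and the homeobox gene KNAT1 by 3.03. The genes called higher were AS2, of leaf polarity (2.82), and WOX5, of the root stem cell niche (2.38).

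Of 38 flowering time genes, 13 fell, 8 rose and 17 were not called, and with library size scaling 0 were higher and 26 lower. The share that fell is near the 35.8% of all genes. SPL3, a target of miR156, had 18.5, 14.9 and 17.1 in wt heat, against 132, 157 and 178 in wt control and fell by 3.13, as did AP2, a target of miR172, by 2.33. The repressor TEM2 fell by 2.52 and FDP, a bZIP factor, by 3.01. CDF2, a repressor of daylength response, rose by 1.22 (0.34 with library size scaling).

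Genes often used as references in PCR were not constant. Of 17, 9 were higher, 4 lower and 4 not called, against 3 higher and 12 lower with library size scaling. The first counts are 52.9% higher and 23.5% lower, beside 33.2% and 35.8% of all genes. With library size scaling the shares of all genes were 13.6% and 61.6%. Of all genes, 69.0% were called on the deposited scale, so change was not particular to these genes. GAPC had 41929, 48261 and 39202 in wt heat, against 12846, 12025 and 10921 in wt control and rose by 1.85, and UBQ10 and ACT7 rose by 1.3 and 1.43. ACT8, UBQ5, PP2AA3, YLS8, GAPC2 and APT1 rose by 0.68, 0.71, 0.28, 0.74, 0.68 and 0.58 but lay below 0 with library size scaling. HIS4, a histone gene, had 85.9, 67.8 and 100.2 in wt heat, against 667, 624 and 622 in wt control and fell by 2.92, and MON1, CBP20 and TUB2 fell by 0.36, 0.42 and 0.38. ACT2, UBC9, UBC21 and TUB6 were not called, at 0.23, 0.15, 0.18 and -0.23, and at -0.65, -0.74, -0.70 and -1.11 with library size scaling.

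Markers of cell types show what the seedling libraries held. Leaf mesophyll markers summed to 1739170 to 2339750 normalized counts in wt heat and 1514950 to 1853480 in wt control, with 2 of 7 called higher, whereas with library size scaling 0 were higher and 7 lower. Root markers were present too, summing to 50741 to 60048 under heat and 69869 to 88543 at control, so the libraries held RNA of shoots and roots. Pollen markers were at or near 0 apart from TUA1, a tubulin also expressed in seedlings, and 0 of 4 tested was called. Seed storage genes varied between libraries, from 44.9 to 721 in wt heat and from 26.5 to 243 in wt control, highest in wt heat replicate 2 and wt control replicate 2. Of these 11 genes, 1 was called, SESA5, which had 0, 0 and 0 in wt heat and 1.83, 7.37 and 0 in wt control, with overlapping values of 0, and a log2 fold change of -1.52.

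The counts of the marker groups depend on the scaling. Of all genes, 33.2% were called higher and 35.8% lower on the deposited scale, and 13.6% and 61.6% with library size scaling. Each marker group holds few genes, so its counts are a description to be read beside these shares. Of 7 endodermis genes, 1 was called higher, 3 lower and 3 were not called on the deposited scale. CASP2 had 46.3, 38.1 and 22.4 in wt heat and 409, 192 and 236 in wt control and fell by 2.92, and CASP4 fell by 3.73, whereas CASP5 rose by 1.64 on the deposited scale and was not called with library size scaling (0.77). These proteins scaffold the Casparian strip. Of 6 root genes, 2 were called higher, 1 lower and 3 were not called, against 2 higher and 4 lower with library size scaling. The hair expansin EXPA7 rose by 2.11 and the nitrate transporter NRT2.1 by 2.66, while BGLU23 fell by 0.50. Among 6 root hair genes 1 rose, 1 fell and 4 were not called. Phloem gave 2 higher and 2 lower of 7, xylem 3 and 1 of 8, the stomatal lineage 2 and 2 of 9, and trichome and epidermis 2 and 4 of 7. With library size scaling the counts were 0 higher and 4 lower in phloem, 0 higher and 4 lower in xylem, 1 higher and 4 lower in the stomatal lineage, 0 higher and 4 lower in trichome and epidermis and 0 higher and 5 lower in the endodermis. EPF2, a peptide that limits stomata, rose by 1.85, and ATML1, the factor of epidermal identity, had 1205, 1152 and 983 in wt heat, against 2636, 2097 and 2049 in wt control and fell by 1.02. The only root cap marker measured, FEZ, had no fragment under heat and 1.83, 1.23 and 2.15 at control.

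Few genes were called when the heat response of wild type was set against that of hop seedlings. With 3 libraries per group, genes that were not called may still differ. In the difference between the responses, 12 of 23827 genes were called (0.0504%, limma), with 2276 at an unadjusted p under 0.05. That count was 1 without wt control replicate 3, at most 5 without replicate 2 of wt control or any replicate of wt heat, and 176 with DESeq2. The clearest was HOP2, a gene that the name of the hop line lists as mutated. HOP2 had 8629, 7318 and 8058 in wt heat, 483, 635 and 548 in wt control, 5128, 4046 and 4979.7 in hop heat and 7.68, 6.36 and 7.15 in hop control. It rose by 3.85 in wild type and had a log2 fold change of 9.19 in hop, a difference of -5.34 (SE 0.17, adjusted p = 1.27e-10, limma). GDPD1, a phosphodiesterase induced by phosphate starvation, had 2396, 2526 and 1694 in wt heat, 531, 603 and 561 in wt control, 698, 679 and 605 in hop heat and 469, 397 and 448 in hop control. It rose by 1.94 in wild type and had a log2 fold change of 0.59 in hop, a difference of 1.35 (adjusted p = 0.0169, limma). SHM7, a hydroxymethyltransferase relative, rose by 3.60 in wild type and had a log2 fold change of 2.42 in hop, a difference of 1.19 (adjusted p = 0.0219, limma). CSN5B, a subunit of the COP9 signalosome, fell by 0.50 in wild type and had a log2 fold change of -1.36 in hop, a difference of 0.86 (adjusted p = 0.0344, limma). HAM1, a histone acetyltransferase, had 718, 736 and 725 in wt heat, 382, 423 and 398 in wt control, 412, 387 and 460.3 in hop heat and 413, 388 and 432 in hop control. Its log2 fold change was 0.86 in wild type (-0.03 with library size scaling) and 0.03 in hop. NIA2, a nitrate reductase, had 44955, 43625 and 43544 in wt heat, 36907, 33828 and 33313 in wt control, 26927, 25386 and 24610.5 in hop heat and 35426, 35012 and 34726 in hop control, with log2 fold changes of 0.35 in wild type (-0.54 with library size scaling) and -0.45 in hop. Its heat values stood above control in wild type and below control in hop on the deposited scale. HOP2 kept its call in 15 of 15 alternative settings, among them all 6 that leave out 1 wt library. In those 6, GDPD1 kept its call in 3, SHM7 in 2, NIA2 in 1 and CSN5B and HAM1 in 0, so leaving out any 1 wt library ended the calls of CSN5B and HAM1.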

How the data were processed

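RNA-seq libraries of 12 seedling samples, 6 of them wild type, were read from the table of normalized counts that the authors deposited, whose values are a signal, fragments per gene divided by a size factor of each library. Per the submitters' processing notes, TopHat2 2.1.0, HTSeq and DESeq2 1.1.14 were used. The genome build and the strand setting of the counting are not given in the sources used here. Per the labels' protocols, RNA was extracted with Trizol and RNeasy columns and made into libraries with a stranded mRNA kit. Dividing by the value of 1 fragment gave whole fragments for 100% of values within a tolerance of 0.01, and depths in the text come from these. The deposited fold change and p columns were not used.

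Values were taken to log2(value + 1), a scale that understates the change of low genes. limma 3.58.1 (R 4.3.3, trend and robust) fitted 4 group means over 12 libraries to genes at 1 or above in 3 or more. Benjamini-Hochberg adjustment ran over all 23827 genes, and a gene was called at an adjusted p under 0.05. The steps were tested on simulated data in which few genes changed, evenly in both directions. That setting does not bear on the choice of scaling. Alternatives were the pseudocounts 0.5 and 5, no filter, a mean of at least 10, scaling by library size or TMM, the 6 wt libraries alone, a replicate block, each replicate left out, and edgeR 4.0.16 and DESeq2 1.42.0 on the recovered fragments.

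Genes were named by rule: the 15 largest rises and falls among called genes with a symbol, a mean of at least 100 and no overlap, the 10 genes with most fragments, the 10 called genes with a symbol and the largest change in mean normalized count per direction, the 8 highest genes with a symbol at 0 in the other group, up to 4 called members per direction of each list with defining members not called, all members of the heat sensing, heat transcription and PCR reference lists, and 6 genes of the comparison with hop. Genes shown for a heat shock element and the remaining heat memory members were named outside it, after their values were seen. The wild-type set and all lists were chosen with earlier results of these data known. Of 1176 names in the lists, 64 had no single match and 8 matched another protein, and these were left out. RefSeq (assembly TAIR10.1) gave positions and upstream sequence, and 32536 loci matched it. Floors for genes at 0 stand for 3 fragments over the group, 1.42 normalized counts in wt heat and 0.728 in wt control. TPM values (fragments per length, scaled to a common total) were computed from the recovered fragments and RefSeq's exonic lengths. Figures were drawn with matplotlib 3.10.9. Some list members are not reported here.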

Additional observations from a re-analysis of the deposited data

Results flagged for a closer look

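Each of the 12 genes below was singled out because the heat response of wild type differed from that of the hop line in a test of the difference itself (limma, adjusted p under 0.05), given as the log2 fold change of wild type minus that of hop. The difference was -5.34 for HOP2 and -3.14 for PCMP-E88, a pentatricopeptide repeat gene that had no fragment in wt heat. It was 3.29 for BHLH114, which had no fragment in hop heat, and 1.35 for AT1G61300, annotated as a probable disease resistance protein. GDPD1 differed by 1.35, AT4G20350, annotated as an oxidoreductase, by -1.34, and AT2G40980, a protein kinase relative, by 1.29. SHM7 differed by 1.19, AT5G15270, an annotated RNA-binding protein, by 1.0, CSN5B by 0.86, HAM1 by 0.83 and NIA2 by 0.80. Over the alternatives the highest adjusted p (limma, edgeR or DESeq2) was 4.07e-08 for HOP2, 0.0666 for PCMP-E88, AT1G61300 and GDPD1, and 0.248 for HAM1.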

How the results depend on the processing

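The count of genes called in wt heat against wt control stayed between 14936 and 17904 over the alternatives, from 15414 to 15851 with a replicate left out. The share of called genes that were higher, 48.1%, was 18.1% with library size scaling, 45.5% with TMM, 46.2% with edgeR, 49.3% with DESeq2 and 49.9% with a mean of at least 10. Of 280 named genes, 243 kept direction and call with library size scaling and at least 276 with each other alternative, apart from a mean of at least 10, which left 272 of them in the test, all kept. With library size scaling the log2 fold change was -0.60 for PP2AA3, -0.20 for GAPC2 and ACT8, -0.31 for APT1, -0.59 for CAB2, -0.56 for CAB1, -0.54 for NIA2, -0.35 for BZIP60, -0.83 for RBCS-1A, -0.17 for LHB1B2, -0.64 for PIF4, -0.65 for ACT2, -0.29 for HSFC1, -0.23 for CAM7, -0.44 for LHCA4, -0.51 for MBF1B, -0.18 for UBQ5 (listed as RPS27AC), -0.43 for HSBP, -0.74 for UBC9, -0.14 for YLS8, -0.70 for UBC21 (listed as PEX4), -0.068 for CNGC4 and -0.026 for HAM1, all above 0 as reported. RBCS-1A was also at -0.012 with TMM, and between -0.0329 without wt heat replicate 1 and 0.18 without wt heat replicate 3. The construction of that scaling lowers every gene, and the median of the gene lists went below 0 in 14 of 33 and that of the cell type lists in 5 of 11. The 12 calls in the difference between wild type and hop became 6 with library size scaling, 30 with TMM, 34 with a replicate block, 34 with edgeR, 176 with DESeq2 and 1 to 11 with a replicate left out. They were 1 without wt control replicate 3, 3 without wt heat replicate 2, 4 without wt heat replicate 1 or 3, and 5 without wt control replicate 2. The cause was not tested. Deviations of wt heat and wt control libraries sharing a replicate number had correlations of -0.02, -0.14 and 0.05. Those of libraries with different numbers ran from -0.17 to 0.18. With 3 libraries per group this comparison cannot decide whether the number is a pairing. The replicate block gave 16822 calls in wild type, against 16435 without it. The share of the 100 highest genes differed by 7.99 points, and by 5.20 to 11.3 over the alternatives. Low counts limit genes with few fragments, whose fold changes depend on the pseudocount.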
